A study of Homo sapiens with 18 samples.

Results

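The 10 genes followed here start autophagosome formation, and were measured in RKO cells depleted of the ESCRT-I subunits Tsg101 or Vps28. They were chosen by name as components of the ULK kinase complex (ULK1, ATG13, RB1CC1), of the class III phosphatidylinositol 3-kinase (PI3K) complexes (BECN1, UVRAG, PIK3C3, ATG14), of the machinery that reads its lipid and places LC3 (WIPI2, ATG16L1), and as C9orf72, and they are 10 of the 20802 genes listed for each library. Earlier results of these data were known when these genes were chosen. RKO is an established human colorectal carcinoma line. It received 30 nM of 1 of 6 siRNAs for 72 h: the nontargeting siCtrl#1 or siCtrl#2, siTsg101#1 or siTsg101#2, or siVps28#1 or siVps28#2. Each siRNA was represented by 3 biological replicates, giving 18 libraries, and each of the 3 labelled batches contains 1 library of every siRNA. All libraries come from 1 cell line and 1 time point, and every group spans the 3 batches, so the siRNA is the only labelled difference between groups.

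In autophagy, cytoplasmic material is enclosed in a double membrane and delivered to lysosomes. The ULK complex starts the process, a class III PI3K complex then marks the membrane with phosphatidylinositol 3-phosphate (PI3P), and WIPI proteins that bind this lipid bring the ATG16L1 complex, which attaches LC3. BECN1 and PIK3C3 belong to both main forms of the PI3K complex, while ATG14 directs it to autophagosome formation and UVRAG to endosomes and later steps. Such genes matter in lysosomal studies because the transcription factors TFEB and TFE3, whose control is named in the title of the study, bind an E-box found near many autophagy and lysosome genes.

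Reads were counted on 1 amplified stretch per transcript, between 2561790 and 7466916 per library (median 5022217). Levels are given as normalized CPM (counts scaled to a common library size), which correct for depth but not for how well a stretch amplifies, so levels of different genes are not compared. Of the 10 genes, 9 exceeded 100 counts in total and were tested among 10246 genes. The target of ATG13, a regulatory subunit of the ULK complex, received 0 to 2 counts per library and 13 in total, at most 0.615 CPM, which was too few to test. A gene is called here when it changed at least 1.5-fold and its adjusted p-value in edgeR's quasi-likelihood test was below 0.05, and all adjusted p-values below are from that fit over all tested genes. The depletion itself was large: TSG101 changed by -4.85 and -5.11 on the log2 scale with its 2 siRNAs, and VPS28 by -4.15 and -4.07. Of 8 epithelial markers 4 exceeded 100 counts in total, while CDH1 had no counts and KRT19, KRT20 and VIL1 had 1, 1 and 6. The epithelial list summed to 93.8 to 167 CPM. Mesenchymal markers summed to 17.5 to 64.5 CPM, with VIM the 1 of 5 that exceeded 100 counts. Endothelial markers summed to at most 0.525 CPM. The leukocyte list was carried by CD68, a lysosomal membrane protein, whereas PTPRC and CD3E had no counts. Its sum was 515 to 723 CPM with siCtrl#1, 781 to 1060 CPM with siCtrl#2, 685 to 841 CPM with siVps28#1 and 1090 to 1670 CPM with the other siRNAs, and the part of this in the changes below was not tested. In bulk RNA, fewer cells of a kind and less RNA per cell cannot be told apart.

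Averaged over the 4 on-target siRNAs, 4 of the 9 tested genes were higher than with siCtrl#1, namely RB1CC1, UVRAG, ATG16L1 and C9orf72, against a background of 8.40% of all tested genes called higher and 6.57% called lower. The other 5, ULK1, BECN1, PIK3C3, ATG14 and WIPI2, were not called. The median change was 0.33 on the log2 scale for the 9 genes, 0.19 for 28 other tested genes of the pathway and -0.01 for all tested genes. The study picked up-regulated autophagy genes from these same libraries, and its text does not name RB1CC1, UVRAG, ATG16L1 or C9orf72. It shows its autophagy genes in a heatmap, and whether these 4 are among them is not known here. The direction of autophagy genes here is not independent evidence. The 9 genes and the pathway list were also chosen with earlier results of these data known, so their shares and medians are descriptions.

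**Figure D1:**
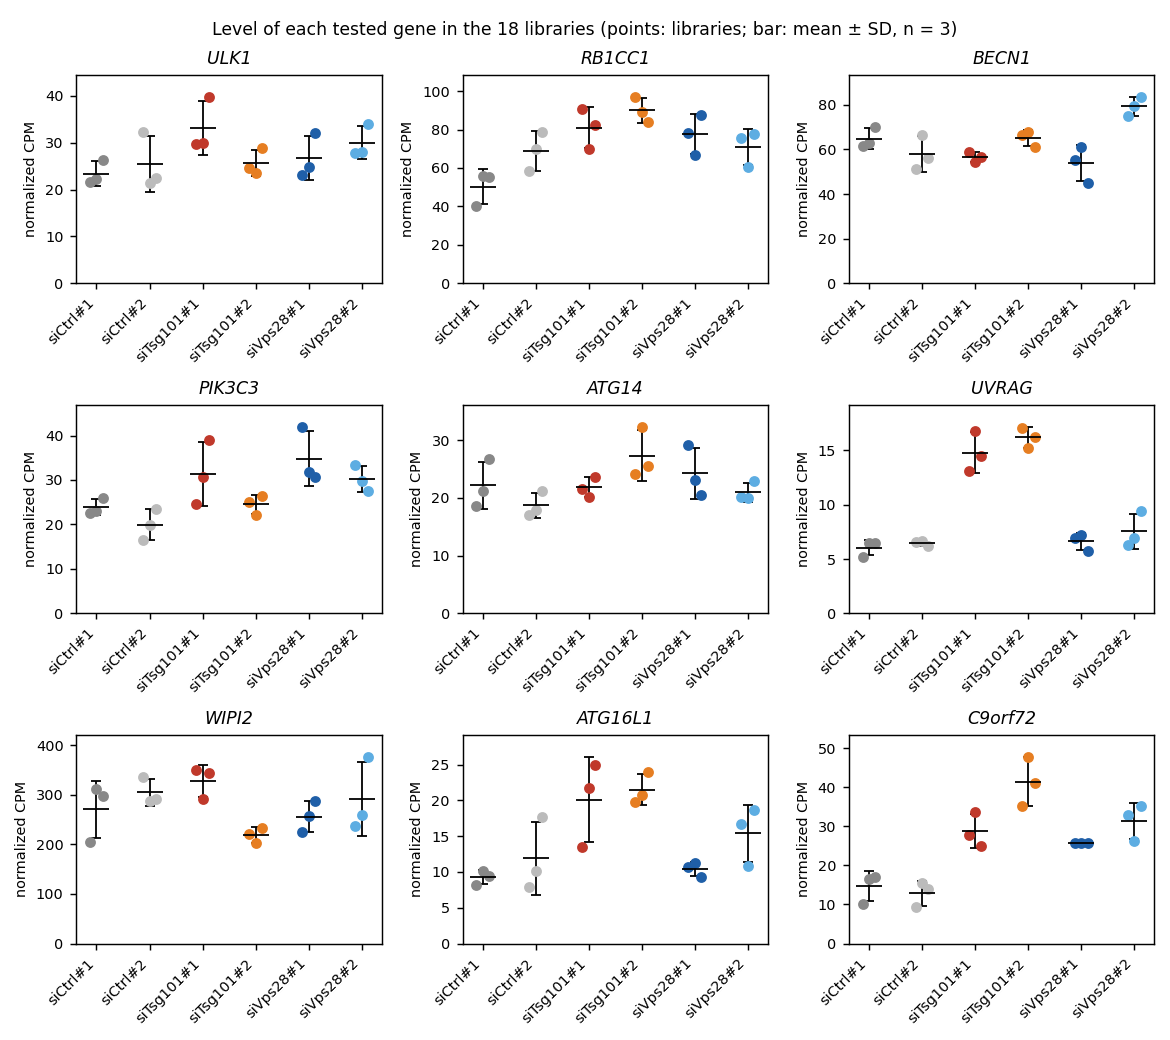
Normalized CPM (vertical axes, from 0, on a scale of its own in each panel) of the 9 tested genes in the 18 libraries, with points for libraries and bars for the mean and SD of 3 replicates per siRNA. UVRAG forms a high level in the 6 siTsg101 libraries, and for C9orf72 all 12 on-target libraries lie above the 6 nontargeting ones.

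Among genes of the ULK complex, RB1CC1, also known as FIP200, the scaffold subunit on which the complex assembles, rose with 3 of the 4 siRNAs. It lies on chromosome 8, 53535018 to 53658403 on the minus strand of GRCh37. It was at 40, 55.7 and 55.1 CPM with siCtrl#1 and at 58.2, 69.7 and 78.5 CPM with siCtrl#2. The 6 siTsg101 libraries ranged from 69.8 to 97.0 CPM (median 86.6), and the 6 siVps28 libraries from 60.4 to 87.7 CPM (median 76.5). The on-target libraries were all above the 3 siCtrl#1 libraries, for which no share of all tested genes was counted, and overlapped with those of siCtrl#2. Compared with siCtrl#1 the change was 0.69 ± 0.17 (log2 ± SE, adjusted p = 0.00519) with siTsg101#1, 0.84 ± 0.17 (adjusted p = 0.00116) with siTsg101#2 and 0.63 ± 0.17 (adjusted p = 0.0233) with siVps28#1. With siVps28#2 it was 0.50 ± 0.17 and not called (adjusted p = 0.0513). The nontargeting siCtrl#2 itself differed from siCtrl#1 by 0.46 (adjusted p = 0.203). Against siCtrl#2 the mean change of the 4 siRNAs was 0.21 (adjusted p = 0.326), and none of the 4 siRNAs changed RB1CC1 by the call used here. Without siCtrl#1 replicate 1 the calls for the mean (0.52, adjusted p = 0.0282), siTsg101#1 (0.55, adjusted p = 0.0414) and siVps28#1 (0.49, adjusted p = 0.137) were lost. The siVps28#1 call was also lost without siVps28#1 replicate 1 or 3 (adjusted p = 0.0647 and 0.112), and siVps28#2 was called without its replicate 2 (0.61, adjusted p = 0.0325).

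ULK1, the kinase of the complex, was not called with any siRNA. Its libraries ranged from 21.5 to 32.3 CPM (median 22.3) with nontargeting siRNAs, from 23.6 to 39.8 CPM (median 29.3) with siTsg101 and from 23.1 to 34.1 CPM (median 28.0) with siVps28. Its largest change was 0.51 ± 0.20 with siTsg101#1 (adjusted p = 0.0555), and the mean change was 0.30 with a 95% interval of -0.03 to 0.62. The intervals do not exclude a change of about the 1.5-fold threshold.

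Of the 4 PI3K complex genes, UVRAG, the subunit of the endosomal form, was the one called. It was at 5.23, 6.46 and 6.51 CPM with siCtrl#1 and 6.60, 6.67 and 6.16 CPM with siCtrl#2. With siTsg101#1 it was at 13.1, 16.8 and 14.5 CPM and with siTsg101#2 at 17.1, 15.2 and 16.2 CPM. With siVps28#1 it was at 6.93, 7.17 and 5.77 CPM and with siVps28#2 at 6.32, 6.95 and 9.38 CPM. Thus the 6 siTsg101 libraries lay above all 12 others, while siVps28 libraries overlapped with the nontargeting ones. The share of all tested genes with the first pattern was not counted.

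Relative to siCtrl#1, UVRAG rose 2.44-fold with siTsg101#1 (log2 1.29 ± 0.22, adjusted p = 1.69e-04) and 2.66-fold with siTsg101#2 (log2 1.41 ± 0.22, adjusted p = 5.64e-05). The values for siVps28#1 and siVps28#2 were 0.12 (adjusted p = 0.822) and 0.31 (adjusted p = 0.401). The difference between both siTsg101 and both siVps28 siRNAs was 1.13 ± 0.15 (95% interval 0.82 to 1.45, adjusted p = 1.21e-05). Within batches it was 1.13, 1.14 and 1.02. Across all tested genes, 3.28% had all 6 siTsg101 libraries above all 6 siVps28 libraries, and UVRAG was the 1 of the 9 that did. Its exons share 197 bases with the antisense transcript UVRAG-DT, and the strand setting of the counting is not stated.

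PIK3C3, the catalytic subunit Vps34, changed by 0.42, 0.03, 0.53 and 0.34 relative to siCtrl#1 with siTsg101#1, siTsg101#2, siVps28#1 and siVps28#2, none of them called. The levels were 22.5, 23.1 and 26.0 CPM with siCtrl#1 and 16.5, 19.8 and 23.5 CPM with siCtrl#2. They were 24.5, 30.7 and 38.9 CPM with siTsg101#1 and 25, 22.1 and 26.3 CPM with siTsg101#2, against 41.9, 31.8 and 30.7 CPM with siVps28#1 and 33.4, 29.8 and 27.6 CPM with siVps28#2. All 6 siVps28 libraries were above all 6 nontargeting libraries, as for 3.55% of all tested genes, but the siTsg101 libraries were not. Of the 9 genes, PIK3C3 and C9orf72 had this pattern. With siCtrl#2 as the reference it rose by 0.67, 0.79 and 0.60 with siTsg101#1, siVps28#1 and siVps28#2 (adjusted p = 0.0171, 0.0170 and 0.0482), and by 0.59 on average (adjusted p = 0.0129). The call on this gene therefore depends on which nontargeting siRNA it is set against.

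BECN1, the scaffold of both PI3K complexes, was at 51.3 to 70.2 CPM (median 62.3) with nontargeting siRNAs, at 54.4 to 67.9 CPM with siTsg101 and at 45 to 83.6 CPM with siVps28. Libraries of siVps28#1, at 55.4, 61.1 and 45 CPM, did not overlap with those of siVps28#2, at 75.1, 79.3 and 83.6 CPM. The difference of -0.56 ± 0.15 was not called (adjusted p = 0.122). How many of all tested genes separate in this way was not counted. ATG14 was at 17 to 26.7 CPM with nontargeting siRNAs and at 20.0 to 32.3 CPM in the on-target libraries, and its mean change was 0.07 (95% interval -0.24 to 0.39). Exons of BECN1 share 795 bases with CNTD1 and 300 with PSME3, and exons of ATG14 share 1047 with FBXO34, all antisense neighbours. Whether the amplified stretch lies in these overlaps is not known, so their part in the counts is uncertain.

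WIPI2, a PI3P-binding protein that recruits ATG16L1, had a mean change of -0.0020 (log2, 95% interval -0.30 to 0.29). It was at 204, 311 and 297 CPM with siCtrl#1, 337, 288 and 291 CPM with siCtrl#2, 350, 291 and 344 CPM with siTsg101#1, and 221, 202 and 233 CPM with siTsg101#2. The siVps28 libraries ranged from 225 to 376 CPM. WIPI2 was 0.59 ± 0.18 higher with siTsg101#1 than with siTsg101#2 (adjusted p = 0.0472), just past 1.5-fold, where 3.20% of all genes were called higher. The call was lost in 12 of 18 fits that each left out 1 library. In this contrast 3.74% of all genes were lower with siTsg101#1. None of the 9 was called lower by edgeR or DESeq2 (1 at an unadjusted p under 0.05, C9orf72).

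ATG16L1, which together with ATG5 and ATG12 directs LC3 to the membrane, rose with both siTsg101 siRNAs. It was at 8.18, 10.2 and 9.42 CPM with siCtrl#1 and 7.87, 10.1 and 17.7 CPM with siCtrl#2. It was at 13.5, 21.8 and 25 CPM with siTsg101#1 and 19.8, 20.8 and 24.0 CPM with siTsg101#2. With siVps28#1 it was at 10.7, 11.2 and 9.23 CPM and with siVps28#2 at 16.7, 10.9 and 18.6 CPM. Apart from the first siTsg101#1 replicate, the siTsg101 libraries were above every other library. How many of all tested genes do so was not counted.

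In numbers, ATG16L1 rose 2.23-fold with siTsg101#1 (log2 1.16 ± 0.28, adjusted p = 0.00329) and 2.33-fold with siTsg101#2 (log2 1.22 ± 0.27, adjusted p = 0.00241). With siVps28#1 the value was 0.17 (adjusted p = 0.797), and with siVps28#2 it was 0.74 (adjusted p = 0.0730), which was called with the batch as a block (0.75, adjusted p = 0.0363), with no low-count filter (adjusted p = 0.0324), without siVps28#2 replicate 2 (0.94, adjusted p = 0.0304) and without siCtrl#2 replicate 1 or 3 (adjusted p = 0.0470 and 0.0430). The siTsg101 siRNAs exceeded the siVps28 siRNAs by 0.74 ± 0.19 (adjusted p = 0.0102), by 0.28, 0.92 and 0.88 within the 3 batches. The mean over the 4 siRNAs was 0.82 against siCtrl#1 and 0.43 against siCtrl#2 (adjusted p = 0.191), and without the first siCtrl#1 replicate 0.74 (adjusted p = 0.0730). Against siCtrl#2 both siTsg101 siRNAs still passed (0.77 and 0.83, adjusted p = 0.0468 and 0.0305).

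C9orf72 forms a complex with SMCR8 and WDR41 that acts on lysosomes and on early autophagy, and it was the 1 gene of the 9 that rose with all 4 on-target siRNAs. It was at 10.2, 16.6 and 17.1 CPM with siCtrl#1 and 9.40, 15.6 and 13.9 CPM with siCtrl#2. It was at 27.8, 33.6 and 25.1 CPM with siTsg101#1, 35.2, 47.7 and 41.2 CPM with siTsg101#2, 25.7, 25.8 and 25.8 CPM with siVps28#1, and 32.8, 26.3 and 35.1 CPM with siVps28#2. All 12 on-target libraries were above all 6 nontargeting libraries, which held for 1.96% of all tested genes. In order of mean level the groups ran siCtrl#2, siCtrl#1, siVps28#1, siTsg101#1, siVps28#2 and siTsg101#2, and neighbours in this order overlapped, except for siCtrl#1 with siVps28#1 and, narrowly, siVps28#2 with siTsg101#2. For such splits between single groups no share of all tested genes was counted.

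The increases of C9orf72 were 1.96-fold with siTsg101#1 (log2 0.97 ± 0.22, adjusted p = 0.00218), 2.82-fold with siTsg101#2 (95% interval of the log2 change 1.06 to 1.94, adjusted p = 2.33e-05), 1.76-fold with siVps28#1 (log2 0.81 ± 0.22, adjusted p = 0.0204) and 2.14-fold with siVps28#2 (log2 1.10 ± 0.21, adjusted p = 9.96e-04). The mean was 1.09 ± 0.18 (adjusted p = 1.23e-04), by 1.52, 0.94 and 0.85 within the batches, and 1.27 ± 0.19 against siCtrl#2 (adjusted p = 4.28e-05). A call in all 4 comparisons with siCtrl#1, which share their control libraries, was made for 2.55% of all tested genes upward and 1.56% downward. Of the 37 tested pathway genes, C9orf72 among them, 4 were called higher in all 4 comparisons. The siVps28#1 call was lost without the first siCtrl#1 replicate (0.61, adjusted p = 0.125) or without any 1 siVps28#1 replicate (adjusted p up to 0.0568). The difference between siTsg101 and siVps28 was 0.28 (95% interval -0.02 to 0.58, adjusted p = 0.233). Exons of C9orf72 share 574 bases with an antisense long noncoding RNA.

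**Figure D2:**
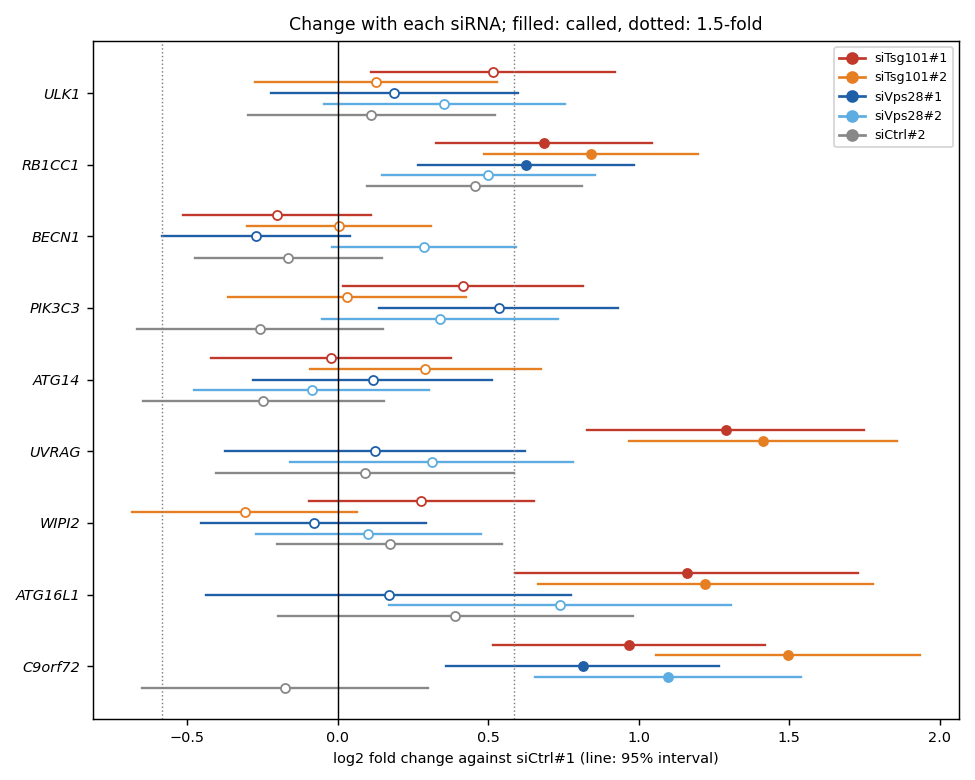
Log2 fold change relative to siCtrl#1 (horizontal axis) with 95% intervals for the on-target siRNAs and for siCtrl#2 in the 9 tested genes, with filled points for called changes. C9orf72 is called with all 4 siRNAs, and UVRAG and ATG16L1 only with both siTsg101 siRNAs.

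Counted by siRNA, 4 of the 9 genes were called higher with siTsg101#1 (background 11.6% higher, 10.1% lower), and 4 with siTsg101#2 (10.1% higher, 6.94% lower). For siVps28#1 there were 2 (4.85% higher, 3.78% lower) and for siVps28#2 there was 1 (7.09% higher, 6.22% lower). edgeR and DESeq2 both called 0 of the 9 lower with any of these siRNAs, with 0 at an unadjusted p under 0.05. The comparison of siCtrl#2 with siCtrl#1 gave 0 calls by either tool, with 1 gene, RB1CC1, higher at an unadjusted p under 0.05, where 1.40% of all genes were called higher and 0.664% lower. Between Tsg101 and Vps28 depletion, 2 of the 9, UVRAG and ATG16L1, were called higher, where 4.12% of all genes were higher and 2.08% lower with siTsg101. Between the 2 siVps28 siRNAs, edgeR and DESeq2 called 0 of the 9, where 0.215% and 0.273% of all genes were called, and 2, BECN1 and ATG16L1, were lower with siVps28#1 at an unadjusted p under 0.05. With siCtrl#2 as the reference, UVRAG, PIK3C3 and C9orf72 were called in the mean of the 4 siRNAs, where 6.09% of all genes were higher and 4.39% lower.

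**Figure D3:**
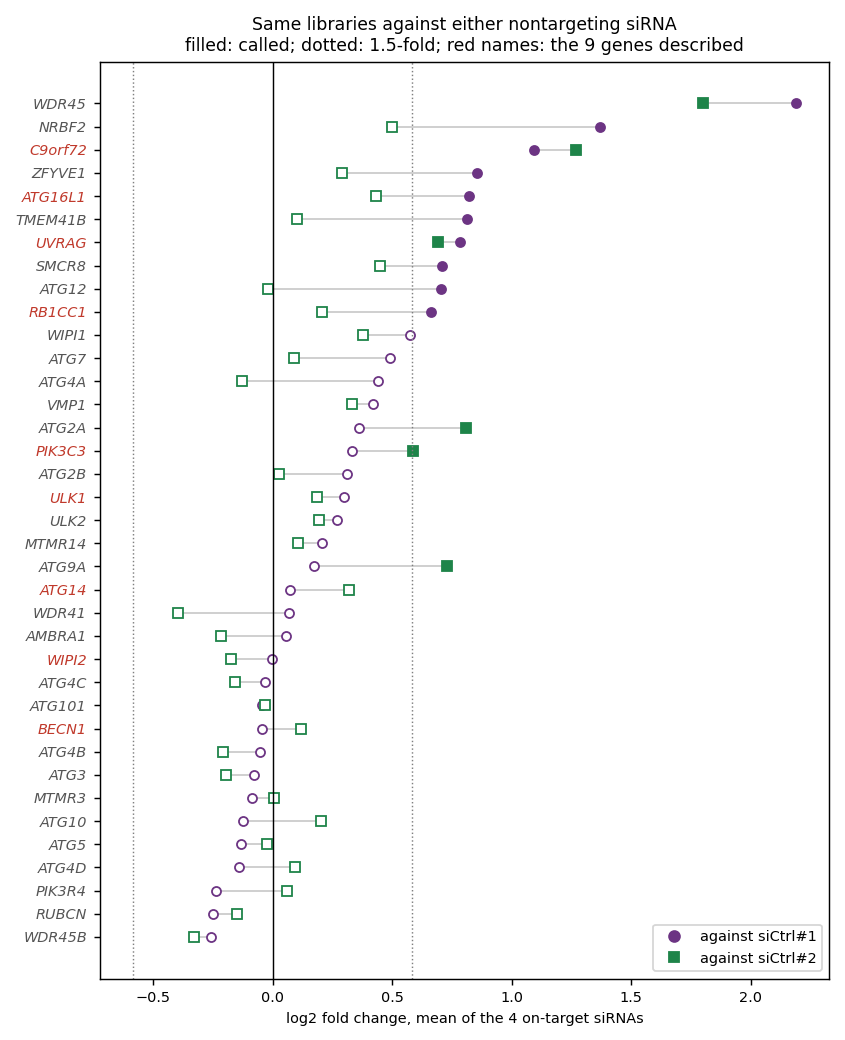
Mean log2 fold change of the 4 on-target siRNAs (horizontal axis) against siCtrl#1 (circles) and siCtrl#2 (squares) for the 37 tested pathway genes, filled where called. Of the genes called against siCtrl#1, all but C9orf72 had smaller values against siCtrl#2, and WDR45, C9orf72 and UVRAG were called against both.

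Around these genes, 6 of the 28 other tested pathway genes were called higher in the mean against siCtrl#1 by edgeR and 6 by DESeq2, and 0 were called lower by either (1 lower at an unadjusted p under 0.05). NRBF2, a subunit that binds the ATG14 form of the PI3K complex, rose by 1.37 and WDR45, a PI3P-binding WIPI family protein, by 2.19. ZFYVE1, a PI3P-binding protein that marks sites of autophagosome formation, rose by 0.85, the lipid scramblase TMEM41B by 0.81, SMCR8, the partner of C9orf72, by 0.71 and ATG12 by 0.71. These values too come from the libraries in which the study picked its up-regulated autophagy genes.

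NRBF2 and ATG12 also rose with siCtrl#2 itself relative to siCtrl#1, NRBF2 by 0.87 (adjusted p = 0.0105) and ATG12 by 0.73 (adjusted p = 0.0233). Against siCtrl#2, the mean change was 0.50 for NRBF2 (adjusted p = 0.0165) and 0.45 for SMCR8 (adjusted p = 0.0402), both under 1.5-fold. It was 0.29 for ZFYVE1, 0.10 for TMEM41B and -0.02 for ATG12, and none of these genes was called in the mean. WDR45 remained called at 1.80, and ATG2A and ATG9A, which supply lipid to the growing membrane, were called at 0.81 and 0.73. By single siRNA against siCtrl#2, NRBF2 was called with siTsg101#1 and siTsg101#2 (0.64 and 0.65, adjusted p = 0.0113 and 0.00932). SMCR8 was called with siTsg101#1 (0.71, adjusted p = 0.00796), and neither gene was called with siVps28#1 or siVps28#2. WDR45 had 9, 3 and 5 counts with siCtrl#1, so its fold change rests on few reads. Its siTsg101 libraries had 24 to 122 counts, the siVps28 libraries 6 to 15, and the difference between them was 2.57 (adjusted p = 1.30e-08).

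**Figure D4:**
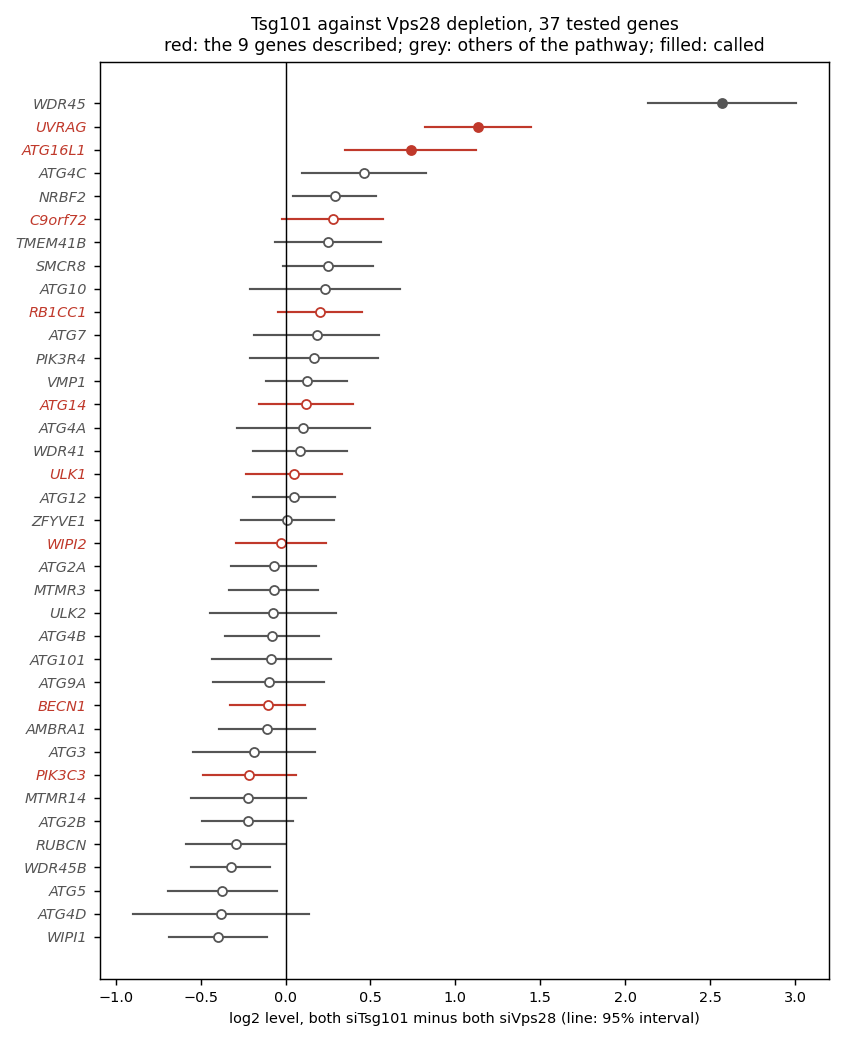
Difference in log2 level between both siTsg101 and both siVps28 siRNAs (horizontal axis) with 95% intervals for 37 tested pathway genes, red for the 9 genes and filled where called. WDR45, UVRAG and ATG16L1 are the 3 called, all higher with siTsg101.

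By siRNA, siTsg101#1 gave 7 higher calls among the 28 against siCtrl#1 (11.6% of all genes), and siTsg101#2 gave 8 higher and 1 lower (10.1% and 6.94%). Each siVps28 siRNA gave 5 higher calls (4.85% for siVps28#1, 7.09% for siVps28#2). WIPI1, another PI3P-binding protein, rose with siVps28#1 (0.86) and siVps28#2 (0.68), and VMP1, which acts with TMEM41B, rose with siTsg101#1 (0.67). ATG7 (0.73) and ATG4A (0.81), enzymes of LC3 conjugation, rose with siTsg101#2, and WDR45B fell with it (-0.69). Against siCtrl#2 the WDR45B call held (-0.76) and the others were lost. WIPI1 was at 0.67 (adjusted p = 0.0560) and 0.48 (adjusted p = 0.133), and VMP1 at 0.58, under 1.5-fold. ATG7 was at 0.33 (adjusted p = 0.392) and ATG4A at 0.24 (adjusted p = 0.566). Between Tsg101 and Vps28 depletion, the difference in WIPI1 was -0.40 (adjusted p = 0.0670) and was not called.

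Promoters of 8 of the 10 genes were found in RefSeq on GRCh38.p14 (10 entries, as WIPI2 and C9orf72 have 2 each), and those of UVRAG and RB1CC1 were not analysed here. The E-box of TFEB and TFE3, CACGTG, was searched on both strands in the 250 bases before each start, where 6.34% of 35116 promoters hold it, and 3.31% hold the longer TCACGTG, which overlaps it. The cyclic AMP response element TGACGTCA was in 1.65% of all promoters and in none of those of the 8 genes. ATG14 was the 1 gene among the 8 with an E-box, 21 bases before the start, though its level was not called. C9orf72 rose with all 4 siRNAs and ATG16L1 with both siTsg101 siRNAs, and neither carries it in this window. The 50 bases after each start were not searched, so a motif there would have been missed. The 100 bases before the start are shown for these 3 genes (for C9orf72, before the first of its 2 starts), because 1 holds the motif and 2 rose without it. They read 5′ to 3′ on the gene's strand, and capitals mark the E-box with the base that makes it TCACGTG on the opposite strand.
ATG14, chr14:55411831-55411930, minus strand: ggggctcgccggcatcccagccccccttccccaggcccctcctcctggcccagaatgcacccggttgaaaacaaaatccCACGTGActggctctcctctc
C9orf72, chr9:27573867-27573966, minus strand: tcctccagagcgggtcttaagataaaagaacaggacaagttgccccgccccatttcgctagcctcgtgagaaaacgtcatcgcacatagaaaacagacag
ATG16L1, chr2:233251573-233251672, plus strand: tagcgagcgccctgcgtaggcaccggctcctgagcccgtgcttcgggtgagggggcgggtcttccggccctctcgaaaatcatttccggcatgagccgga
A match of letters is a description of the sequence only.

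On GRCh37, the build of the counting reference, UVRAG spans chromosome 11, 75526255 to 75855276 on the plus strand, ATG16L1 chromosome 2, 234118697 to 234204320 on the plus strand, and C9orf72 chromosome 9, 27535638 to 27573864 on the minus strand. On the plus strand lie ULK1 (chromosome 12, 132379167 to 132407695), ATG13 (chromosome 11, 46639077 to 46696368), PIK3C3 (chromosome 18, 39535199 to 39667794) and WIPI2 (chromosome 7, 5229827 to 5273471). BECN1 (chromosome 17, 40962152 to 40985367) and ATG14 (chromosome 14, 55833109 to 55878548) lie on the minus strand. Which exon the panel amplifies is not given in the sources used here.

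Over the 18 libraries, the genes whose levels were most like UVRAG were NUP205, SERPINB8 and PPP2CA (Pearson's r of 0.963, 0.961 and 0.959). For C9orf72 they were MMAB, CMAS and RIMOC1 (0.937, 0.933 and 0.933), for RB1CC1 C6orf62, WDR19 and PJA2 (0.931, 0.888 and 0.874), and for ATG16L1 ZFR, ADAM10 and KCNC4 (0.906, 0.870 and 0.864). UVRAG and ATG16L1 had an r of 0.810 over all libraries and 0.325 within siRNA groups. These values share the siRNA groups and are descriptions of 18 libraries.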

How the data were processed

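The authors amplified RNA of 18 samples with an Ion AmpliSeq Transcriptome panel, sequenced it on an Ion Proton, aligned it by TMAP to hg19 transcripts and counted reads by HTSeq-count 0.6.0. They deposited unnormalized counts per transcript target, one list per library. Reads assigned to no feature (48.2% to 49.1% of reads) and the 10 spike-in targets were left out.

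Genes with more than 100 counts in total and of no noncoding type were kept (10246). Counts were normalized by TMM and tested with edgeR 4.0.16 in R 4.3.3 (6 siRNA groups in one fit, quasi-likelihood test, Benjamini-Hochberg adjustment). The fit was checked on simulated counts. The genes named are the 10 members, TSG101 and VPS28, and pathway genes called in the comparisons. Also named are the 3 genes most correlated with RB1CC1, UVRAG, ATG16L1 and C9orf72, while those of the other tested members are not given. The members and lists were chosen with earlier results of these data known. Replicate numbers are the labelled batches; same-numbered libraries of different siRNAs deviated together with a mean r of 0.145 over 45 pairs. Alternatives were DESeq2 1.42.0, RLE scaling, other low-count filters, siCtrl#2 or both nontargeting siRNAs as the reference, the batch as a block, and each library left out. Replicates were described as biological, and amplified reads carry no molecular identifiers.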

Additional observations from a re-analysis of the deposited data

Results flagged for a closer look

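WIPI2 differed between the 2 siRNAs against Tsg101, which are meant to deplete the same protein. It was 0.59 higher on the log2 scale with siTsg101#1 than with siTsg101#2 (edgeR adjusted p = 0.0472), and by 0.67, 0.52 and 0.56 within the 3 batches. The difference was 0.52 to 0.66 when each library was left out, with adjusted p-values from 0.0226 to 0.168, and 6 of these 18 fits kept the call: those without siCtrl#1 replicate 1 or 2, siCtrl#2 replicate 1, siTsg101#1 replicate 2, siVps28#1 replicate 3 or siVps28#2 replicate 3.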

How the results depend on the processing

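Among the 9 genes no called value changed sign, though some values that were not called did; of the other pathway genes, ATG12 went from 0.71 to -0.02 in the mean with siCtrl#2 as the reference. Of 495 values not leaving out a library, 478 kept their side of the threshold, 10 lost it and 7 passed it. Of 1458 leaving out 1 library, 1432 kept it, 22 lost it and 4 passed it. Most of these values were not called in the main fit, so they had no call to lose. The count for siVps28#2 was 2 of 9 with no low-count filter, 2 with siCtrl#2 as the reference and 2 with the replicate block, against 1, and 1 to 3 when libraries were left out. The block changed no other count of calls. The count for siTsg101#1 above siTsg101#2 was 0 with no filter and 0 with at least 10 counts in every library, and 0 to 1 without single libraries. Leaving out libraries gave 0 to 2 for siVps28#1, 2 to 4 for the mean of the 4 siRNAs (2 without siCtrl#1 replicate 1) and 0 to 2 for all 4 siRNAs. The cause was not tested. UVRAG and ATG16L1 differed between siTsg101 and siVps28 with DESeq2, RLE scaling, both other filters, the block and each library left out. Amplification without molecular identifiers means counting error is not the whole error.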
